A study of Homo sapiens with 6 samples.

Results

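The olfactomedin family was followed as 9 genes, MYOC, OLFM1, OLFM2, OLFM3, OLFM4, OLFML1, OLFML2A, OLFML2B and OLFML3, taken from the 60483 genes of the count matrix by symbol. RNA-seq compared A2780 cells, an ovarian carcinoma line, with genotype WT (3 libraries) against a homozygous CDK12 KO clone of the same line (3 libraries). The KO group is 1 clone, isolated after 2 rounds of transfection with a CRISPR/Cas9 plasmid against exon 1 of CDK12, so clone and genotype cannot be told apart. All libraries came from cells grown in RPMI with serum, without drug treatment in the labels, and nothing in the labels says whether the libraries of a group came from separate cultures. Values are raw read counts, or CPM, which is counts scaled by TMM to a common library size of 1e+06. The family was singled out because the KO against WT difference of MYOC and OLFM3 was known, so the differences of its members are given as a description without a test.

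Olfactomedin-domain proteins are mostly secreted glycoproteins of the extracellular matrix and the cell surface, which share a propeller-shaped domain at the C-terminus. MYOC encodes myocilin, a secreted protein of the trabecular meshwork of the eye whose mutation causes an inherited glaucoma. OLFM1, OLFM2 and OLFM3, also called noelins, are secreted in the nervous system and bind neuronal surface proteins. OLFM4 is a marker of intestinal crypt stem cells and of a subset of neutrophils, OLFML2A and OLFML2B are photomedins, and OLFML3 has been described as a scaffold for a chordin-cleaving protease.

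On GRCh38, 4 of the 9 genes lie on chromosome 1. MYOC runs from 171635417 to 171652688 on the minus strand and has 3 exons in its reference transcript, OLFM3 from 101802560 to 101996926 on the minus strand with 6 exons, OLFML3 from 113979391 to 114035572 on the plus strand with 3 exons, and OLFML2B from 161983192 to 162023869 on the minus strand with 8 exons. Chromosome 9 holds OLFML2A, from 124777133 to 124814885 with 8 exons, and OLFM1, from 135075422 to 135121180 with 6 exons, both on the plus strand. The others are OLFML1 on chromosome 11, from 7485388 to 7511377 on the plus strand, OLFM4 on chromosome 13, from 53028813 to 53052057 on the plus strand, and OLFM2 on chromosome 19, from 9853718 to 9936515 on the minus strand. All 9 are protein coding.

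Promoter windows of members with a large difference are shown for their content of CpG, the dinucleotide that DNA methylation acts on. RefSeq promoter windows of 300 bases (GRCh38.p14) were found for 7 of the 9 genes, 12 windows in all, and not for MYOC and OLFML1. The 250 bases before the start are printed 5′ to 3′ with each CG in capitals. OLFM3 is from chr1:101846989-101847238, minus strand, OLFML3 from chr1:113979224-113979473, plus strand, and OLFML2A, at the first of its 2 RefSeq starts, from chr9:124776883-124777132, plus strand.
OLFM3: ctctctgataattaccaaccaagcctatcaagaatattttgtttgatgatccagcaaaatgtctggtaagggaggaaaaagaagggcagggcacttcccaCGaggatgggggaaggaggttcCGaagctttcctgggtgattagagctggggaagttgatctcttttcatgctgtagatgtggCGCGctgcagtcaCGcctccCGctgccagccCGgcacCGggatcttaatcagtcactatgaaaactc
OLFML3: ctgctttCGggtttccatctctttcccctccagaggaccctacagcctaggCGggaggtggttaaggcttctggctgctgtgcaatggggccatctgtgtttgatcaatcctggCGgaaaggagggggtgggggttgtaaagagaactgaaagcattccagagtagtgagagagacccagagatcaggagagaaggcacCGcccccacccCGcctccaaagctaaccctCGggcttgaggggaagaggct
OLFML2A: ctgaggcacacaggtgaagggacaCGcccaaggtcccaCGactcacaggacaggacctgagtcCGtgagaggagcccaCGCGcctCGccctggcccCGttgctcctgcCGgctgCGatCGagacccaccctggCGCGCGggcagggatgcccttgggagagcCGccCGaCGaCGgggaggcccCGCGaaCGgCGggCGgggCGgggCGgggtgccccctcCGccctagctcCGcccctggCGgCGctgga
The full 300-base windows held 9 CG in OLFM3, 7 in OLFML3 and 34 in the printed window of OLFML2A, against a median of 14 over the 35116 windows of the table. As few CG or fewer were found in 43.6% of all windows for OLFM3, 39.3% for OLFML3 and 85.9% for that window of OLFML2A. The second window of OLFML2A, at a start 23741 bases further into the gene, held 7 CG, as many as that of OLFML3. At least 1 CG was present in 96.0% of all windows. The letters TATAAA, read on both strands, were present in 1 of the 12 windows of the family, one of the 3 windows of OLFM2, and in 11.5% of all windows. The RefSeq start of OLFM3 lies 149938 bases inside the 5′ end of the GENCODE gene, so the window is that of an inner start. Counts per gene do not show which start was used, and DNA methylation was not measured.

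Total counts were 11098400 to 30899045 per library, and 3 counts, the floor of detection, corresponded to at most 0.270 CPM. Floors and intervals cover counting error only, and reads carried no molecular identifiers. The intervals pool the counts of a group and leave out the spread between its libraries. Taken over many genes, the chi-square per degree of freedom between libraries of a group was 1.72 to 7.05, more than counting error alone gives. The targeted gene, CDK12, was counted 2831, 3759 and 1294 times in WT and 2432, 2504 and 1818 times in KO, a log2 fold change of -0.23 (SE 0.0582, adjusted p = 8.20e-04, edgeR quasi-likelihood test). Each SE given is the size of the log2 fold change divided by the square root of the F statistic of that test. For genes near 0 in a group it understates the error. Counts per gene cannot tell edited from unedited CDK12 transcripts. Of 10 markers of ovarian carcinoma and epithelium 3 passed the filter on low counts, with a summed level of 68.5 to 74.1 CPM in WT and 115 to 119 CPM in KO. KRT18 made up most of this sum (mean 59.9 CPM in WT and 103 in KO), and the other tested markers were KRT8 and EPCAM. Among the markers that did not pass, PAX8, MUC16 and WT1, picked out after their values were seen, had group means of at most 0.200 CPM. The 9 olfactomedin genes divided into 6 that passed the filter and 3 that did not (OLFM4, OLFML1 and OLFML2B).

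The leading member of the family differed between the cell lines: OLFM3 was the most abundant in WT and MYOC in KO. Each was nearly absent where the other was abundant. OLFML3 was higher and OLFML2A lower in KO, OLFM1 differed by less than the fold threshold, and the groups of OLFM2 overlapped. OLFM4 had no counts in any library.

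In WT, MYOC had 3, 0 and 0 counts, against 4083, 4641 and 3083 counts in KO. On the CPM scale this is 0.109, 0 and 0 in WT and 166, 172 and 173 in KO. The groups do not overlap, and the WT libraries lie at or under the floor. Summed over libraries, the KO level was 3889 times that of WT (exact 95% counting interval 1330 to 18861). WT replicate 1 held all 3 WT counts, and without it WT was at 0, which makes MYOC at least 631-fold higher in KO against the highest floor of the other WT libraries. The fitted log2 fold change of 11.76 (SE 0.151) depends on the prior count and ranged from 10.99 to 14.88 over the alternatives. With only 3 WT counts this SE is too small as a measure of error, and the counting interval is far wider.

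OLFM3 showed the opposite pattern. It was counted 7846, 8806 and 3141 times in WT and 1, 0 and 0 times in KO. In WT this corresponds to 286, 294 and 283 CPM (288 ± 5.66, SD, n = 3), and KO replicate 1 had 0.0407 CPM. Every WT library is far above every KO library, and no KO library reaches the floor. The summed WT level was 20031 times that of KO (exact 95% counting interval 3595 to 791204). Without KO replicate 1, which held the only count, OLFM3 was at least 1707-fold lower in KO. The fitted log2 fold change was -13.82 (SE 0.146), with a range of -15.67 to -13.15 over the alternatives. With only 1 KO count this SE is likewise too small as a measure of error.

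OLFML3, the scaffold protein, was measurable in both groups. Its counts were 99, 109 and 34 in WT and 509, 568 and 375 in KO. This gives 3.61, 3.64 and 3.06 CPM in WT and 20.7, 21.1 and 21.1 CPM in KO, with the 3 KO libraries close together and all above WT. The log2 fold change was 2.57 (SE 0.0990), a 5.94-fold difference, and it stayed between 2.52 and 2.60 over the alternatives, the narrowest range among the 4 members past both thresholds.

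OLFML2A, a photomedin, was low in WT and at the floor in KO. It had 50, 55 and 27 counts in WT and 3, 3 and 0 in KO, which is 1.82, 1.84 and 2.43 CPM against 0.122, 0.111 and 0 CPM. The groups do not overlap. The WT level was 22.3 times the KO level by summed counts (exact 95% counting interval 9.96 to 61.8), and the log2 fold change was -4.41 (SE 0.394). Its sister photomedin OLFML2B was lower still, with 7, 15 and 5 counts in WT and 6, 3 and 1 in KO. In CPM the lowest WT library of OLFML2B (0.255) was just above the highest KO library (0.244). Its summed WT level was 2.73 times that of KO (exact 95% counting interval 1.28 to 6.33), at counts too low for the filter. With KO replicate 1 or WT replicate 1 left out, or without the filter, OLFML2B entered the test and passed both thresholds. It also entered the test without KO replicate 2 or KO replicate 3, and there it did not pass.

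The noelins OLFM1 and OLFM2 were expressed at similar CPM in WT and parted in KO. OLFM1 had 517, 600 and 200 counts in WT and 783, 867 and 578 in KO, or 19.0 ± 1.01 CPM against 32.2 ± 0.307 CPM (SD, n = 3). All KO libraries were above all WT libraries, with a log2 fold change of 0.75 (SE 0.0671), a 1.68-fold difference. OLFM2 had 582, 654 and 200 counts in WT and 473, 530 and 322 in KO, or 20.4 ± 2.06 CPM against 19.0 ± 0.824 CPM (SD, n = 3). Here the groups overlap, and the log2 fold change was -0.12 (SE 0.0764). WT replicate 3, the library with the lowest total, was the lowest WT library for OLFM1, OLFM2, OLFM3 and OLFML3, and the highest for OLFML1 and OLFML2A.

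OLFML1 and OLFM4 complete the family. OLFML1 had 9, 12 and 9 counts in WT and 8, 9 and 6 in KO, and its CPM ranges overlapped, 0.328 to 0.810 against 0.326 to 0.337. The ratio of summed levels, 1.32, had an exact 95% counting interval of 0.741 to 2.38, so a difference was not detectable at this depth. OLFM4 had 0 counts in all 6 libraries, which allows a level of up to 0.270 CPM in the shallowest library.

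A gene was called where the adjusted p was below 0.05 and the log2 fold change exceeded 1 in size. MYOC and OLFML3 were past both thresholds upward and OLFM3 and OLFML2A downward. Of the 16198 tested genes 8.30% were called up and 7.73% down. The members were chosen on this contrast, so nothing is read from their count. KO and WT values were separate for 5 of the 6 tested members, and for 66.4% of all tested genes. The exception was OLFM2.

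Levels were compared between genes per length, as CPM per kb of exon (exons of all transcripts merged, from GENCODE 44). In WT the order was OLFM3 with 65.5 ± 1.29, OLFM2 with 8.27 ± 0.835, OLFM1 with 3.10 ± 0.165, OLFML3 with 1.22 ± 0.115 and OLFML2A with 0.300 ± 0.0513 CPM per kb (SD, n = 3). OLFML1 and OLFML2B followed with overlapping ranges, and MYOC and OLFM4 were last, at or under the floor. The level of OLFM3 in WT was above that of 96.9% of the tested genes.

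In KO the order was MYOC with 81.1 ± 1.84, OLFM2 with 7.72 ± 0.335, OLFML3 with 7.43 ± 0.0761 and OLFM1 with 5.25 ± 0.0501 CPM per kb (SD, n = 3). The ranges of OLFM2 and OLFML3 overlapped in KO, while in WT OLFM1 stood between them. The KO order of these genes depends on the length used. With the length of the reference transcript, OLFML3 led with 10.4% to 10.5% of the family level in the KO libraries. OLFM1 followed with 9.99% to 10.2% and OLFM2 with 7.90% to 8.64%, and the ranges did not overlap. In WT their order was the same with both lengths. The other 5 genes had means of at most 0.0967 CPM per kb, and of these only OLFML1 was separate from the next in order, OLFML2B. MYOC in KO was above 97.8% of the tested genes.

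OLFM3 made up 82.7% to 84.2% of the summed per-length level of the family in the WT libraries, and MYOC 79.3% to 80.3% in the KO libraries. With the length of the reference transcript in place of all exons, the shares were 81.6% to 83.1% and 70.4% to 71.4%. With exons of all transcripts merged, the summed level was 78.7 ± 2.21 CPM per kb in WT and 102 ± 1.83 in KO (SD, n = 3). This higher KO total is given for merged exons only and need not hold with reference transcript lengths. Summed without length correction, the level was 333 ± 8.30 CPM in WT and 243 ± 3.99 CPM in KO. Which group had the higher total thus turns on the length correction, since OLFM3 transcripts are longer than those of MYOC. In bulk RNA, fewer cells expressing a gene and less RNA of it per cell cannot be told apart.

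**Figure D1:**
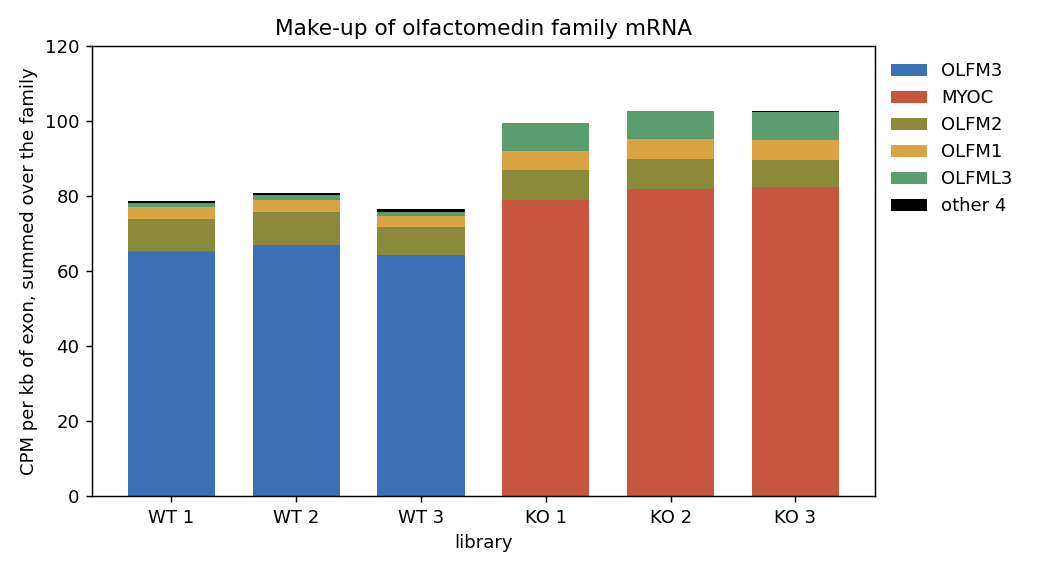
Summed CPM per kb of exon (exons of all transcripts merged) of the olfactomedin family in each library, split by gene. OLFM3 fills most of each WT bar and MYOC most of each KO bar, on totals of 76.4 to 80.9 in WT and 99.5 to 103 in KO.

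Markers of other cell types in which family members are known to be expressed stayed low. The summed level of 8 skeletal muscle markers was 1.62 to 1.90 CPM in WT and 1.38 to 2.04 CPM in KO, with 2 of 8 tested and MYH1, MYOD1 and MYOG at 0 in all libraries. The 6 Schwann and glial markers summed to 2.15 to 2.52 CPM in WT and 1.57 to 1.86 CPM in KO, with S100B and SOX10 at 0. Of the tested genes of both lists none was called.

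Other marker lists differed between the groups. Of all tested genes 8.30% were called up and 7.73% down. The 8 fibroblast markers, all tested, summed to 11223 to 11598 CPM in WT and 8677 to 8955 CPM in KO, and 5 of them were called down. The others, COL3A1 (mean 6006 CPM in WT and 5960 in KO), COL1A2 (4577 and 2623) and THY1 (113 and 136), were not called. COL3A1 and COL1A2 made up most of the sum. Of 7 neuron markers, which summed to 9.45 to 9.82 CPM in WT and 5.50 to 6.23 CPM in KO, 5 were tested, 1 was called up and 2 down, and STMN2 was at 0. Leukocyte markers summed to at most 1.19 CPM in any library (1 of 7 tested, called up, MS4A1 at 0). Neutrophil precursor markers summed to at most 2.63 CPM (1 of 7 tested, called down, LCN2 at 0) and endothelial markers to at most 6.03 CPM (3 of 6 tested, 1 up and 1 down). The marker called up among leukocyte genes, CD14, named after its values were seen, was not called without KO replicate 2 or WT replicate 2. The part of other cells in the member values was not tested.

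Genes with the pattern most like MYOC and OLFM3 were ranked by the Euclidean distance of log2(CPM + 0.5) over the 6 libraries. Nearest to MYOC were ANKRD22 (distance 1.02), SMARCA2, an ATPase of the SWI/SNF complex (2.97), FRY (3.27), the transcription factor NFIA (3.31) and STRA6, a membrane receptor for retinol transport (3.51). ANKRD22 had 5 counts over the WT libraries and 245 ± 9.39 CPM in KO (SD, n = 3), while the next, SMARCA2, kept 0.850 ± 0.0463 CPM in WT. Nearest to OLFM3 were PEG10, an imprinted retrotransposon-derived gene (0.715), the homeobox gene DLX2 (0.828), SPRY1, a feedback inhibitor of receptor tyrosine kinase signalling (1.02), F2RL2, a thrombin receptor (1.64), and COL15A1, a basement membrane collagen (2.29). PEG10 averaged 325 ± 21.0 CPM in WT against 0.161 ± 0.0465 in KO, and DLX2 208 ± 8.28 CPM in WT against 0 counts in KO. These genes were ranked on the same 6 libraries, so their likeness is a description. None of these 10 genes lies within 1 Mb of a member.

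The genomic surroundings of the members were examined through the tested genes within 1 Mb. Of 175 such genes, 16 were called up and 11 down, with a median log2 fold change of 0.05, against 0.00 over all tested genes. The shares called over all tested genes were 8.30% up and 7.73% down. The counts around single members given below cover 6 to 48 genes each and are to be read beside these shares. After thinning every library to the lowest total 9 were called up, and without the filter on low counts 20 were called down. Around MYOC 3 of 11 genes were called up and none down, and the genes closest to it were not among those called. The 3 nearest, named for their position, were PFN1P1 at 0.0178 Mb, PRRC2C at 0.0419 Mb on the other side and VAMP4 at 0.0475 Mb, with log2 fold changes of -0.59, -0.25 and 0.48. PIGC, an enzyme of GPI anchor synthesis (0.718 Mb away, log2 fold change 1.14, SE 0.0486), C1orf105 (0.768 Mb away, 3.64, SE 0.308) and SUCO (0.880 Mb away, 1.32, SE 0.0492) rose in KO. PIGC and C1orf105 overlap on opposite strands, so reads of the pair may not be separable if strand was not used in counting.

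Around OLFM3 2 of 6 genes were called down and none up. COL11A1, a fibrillar collagen gene from 102876467 to 103108872 and 0.880 Mb from OLFM3, had 2936, 3400 and 1268 counts in WT and 2, 0 and 0 in KO. Its log2 fold change was -11.67 (SE 0.165, adjusted p = 2.49e-33, edgeR), and like OLFM3 its only KO counts were in KO replicate 1. At so few KO counts the SE understates the error. RPSAP19, a processed pseudogene 0.0153 Mb from OLFM3, fell with a log2 fold change of -2.30, but its reads can be shared with the ribosomal protein gene it copies. On the side away from COL11A1, EXTL2, SLC30A7, DPH5 and DPH5-DT, 0.712 to 0.907 Mb away, had log2 fold changes of -0.49, -0.29, -0.10 and 0.45 and were not called.

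Next to OLFML2A, NR6A1, a nuclear receptor gene on the opposite strand that starts 0.00582 Mb away, was the only called gene among 15, and it fell from 7.57 ± 0.441 to 1.06 ± 0.147 CPM (SD, n = 3), a log2 fold change of -2.81 (SE 0.159, adjusted p = 1.70e-16, edgeR). Around OLFML3 3 of 20 genes were called up and none down. They were BCL2L15 (log2 fold change 1.11), HIPK1-AS1 (1.26) and LRIG2-DT (1.10). Without WT replicate 2 none of the 3 was called, and LRIG2-DT was also not called without KO replicate 1, KO replicate 2 or WT replicate 3. OLFM1 had no called gene among 13 and OLFM4 none among 13.

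Neighbours were also called around OLFML2B, OLFML1 and OLFM2. Around OLFML2B, itself low in both groups and lower in KO, 9 of 34 genes were called up and none down, with a median log2 fold change of 0.39. The protease gene ADAMTS4 rose from 0.525 ± 0.115 to 11.9 ± 1.82 CPM (SD, n = 3), and the others were ARHGAP30, NECTIN4, FCER1G, CFAP126, FCGR2B, FCGR2C, HSPA7 and C1orf226, with group means of at most 2.07 CPM. NECTIN4 was not called without KO replicate 1 or WT replicate 2. FCGR2B and FCGR2C are near-identical copies and HSPA7 is a pseudogene of a heat shock gene, so their reads may be shared. Around OLFML1 4 of 15 genes were called down and none up: GVINP1, the zinc finger genes ZNF215 and ZNF214, and PPFIBP2, which starts 0.00192 Mb away. ZNF215 fell from 25.7 ± 1.51 CPM to 2 counts over the KO libraries. Around OLFM2 COL5A3 rose and ICAM4, PDE4A, AP1M2 and SLC44A2 fell among 48 genes.

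Genes that overlap a member were inspected as well. Of 5 such genes in the matrix, all on the opposite strand, DNAJA1P5 inside OLFM3 had 4, 7 and 2 counts in WT and 0 in KO, and 3 others had no counts. SYT9-AS1, antisense to OLFML1, had 102, 112 and 44 counts in WT and 88, 104 and 78 in KO, a log2 fold change of 0.05 (SE 0.140, adjusted p = 0.772, edgeR), and was counted more often than OLFML1 in each library. The library kit keeps strand, but the strand setting of the counting is not given in the sources used here.

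Other carriers of the olfactomedin domain came next. Of 4 such genes, the adhesion receptors ADGRL1, ADGRL2 and ADGRL3 (latrophilins) and gliomedin (GLDN), 3 were tested and 2 were called down. The most abundant, ADGRL1, averaged 231 ± 10.9 CPM in WT against 281 ± 4.88 in KO (SD, n = 3) and stayed under the fold threshold. ADGRL3 fell from 1.06 ± 0.0836 to 0.223 ± 0.0506 CPM, a log2 fold change of -2.25 (SE 0.347, adjusted p = 1.13e-06, edgeR). ADGRL2 had 0.834 ± 0.190 CPM in WT and 0 counts in KO, at least 4.95-fold lower. Neither passed the filter after thinning every library to the lowest total. GLDN had 3 counts in all, in KO. For this list and those that follow, the shares called over all tested genes were 8.30% up and 7.73% down. Each list held only 3 to 13 tested genes.

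Partners of myocilin and proteins that handle it were represented by 15 genes, of which 12 were tested, 2 were called down and none up (median log2 fold change -0.27). WIF1, a secreted inhibitor of Wnt ligands, fell from 11.1 ± 0.680 to 0.0582 ± 0.0222 CPM (adjusted p = 1.31e-22, edgeR). FLOT1, flotillin of lipid rafts, fell from 125 ± 4.43 to 54.3 ± 1.74 CPM, a log2 fold change of -1.20 (SE 0.0518, adjusted p = 9.71e-20). The other 10 tested genes, among them the chaperones of the endoplasmic reticulum HSPA5 and HSP90B1 and the matrix proteins FN1 and SPARC, were not called.

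Neuronal surface proteins that bind the noelins or their partners were 15 genes, of which 8 were tested, 2 were called up and 2 down (median 0.46). LINGO1, part of the Nogo receptor complex, fell from 23.6 ± 0.517 to 9.48 ± 0.606 CPM (log2 fold change -1.31, SE 0.0803, adjusted p = 1.47e-15, edgeR). FLRT2, an adhesion protein that binds latrophilins, had 3.38 ± 0.472 CPM in WT and 0 counts in KO, at least 20.1-fold lower. Its relative FLRT3 and the teneurin TENM4 rose, to 0.703 ± 0.286 and 0.566 ± 0.102 CPM in KO. After the same thinning neither of the 2 genes called up passed the filter.

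Of 17 glaucoma genes 10 were tested, 1 was called up and 3 down (median -0.19). FOXC1, a forkhead factor of the anterior eye segment, fell from 4.85 ± 0.276 to 0.752 ± 0.214 CPM, THBS1, thrombospondin, from 57.5 ± 4.92 to 14.7 ± 0.369 CPM, and ABCA1, a cholesterol transporter, from 22.7 ± 1.92 to 1.26 ± 0.141 CPM. PAX6, the eye homeobox factor, rose from 0.509 ± 0.159 to 2.00 ± 0.285 CPM (log2 fold change 2.06, SE 0.263, adjusted p = 3.73e-08, edgeR).

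Intestinal crypt stem cell genes, the setting in which OLFM4 is best known, were 10, of which 5 were tested, 1 was called up and 3 down (median -1.32). LGR5 and SMOC2 had 0 counts in all libraries, like OLFM4. PROM1 fell from 9.63 ± 0.783 to 0.0622 ± 0.0572 CPM, MSI1, an RNA-binding protein, from 4.96 ± 0.534 to 0.741 ± 0.0719 CPM, and AXIN2, a target of Wnt signalling, from 6.06 ± 0.734 to 2.41 ± 0.437 CPM. RNF43, a ligase that removes Wnt receptors, rose from 0.795 ± 0.225 to 3.07 ± 0.334 CPM.

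BMP and chordin genes, the setting of OLFML3, were 17, of which 13 were tested, 2 were called up and none down (median 0.27). Both genes called up encode proteases of the same family, some members of which cleave chordin. BMP1 rose from 36.1 ± 0.154 to 123 ± 5.58 CPM (log2 fold change 1.76, SE 0.0545, adjusted p = 8.84e-24, edgeR) and TLL2 from 11.4 ± 1.05 to 28.7 ± 1.02 CPM (1.36, SE 0.0773, adjusted p = 1.70e-16). CHRD, chordin, averaged 2.03 ± 0.504 CPM in WT against 1.12 ± 0.221 in KO. Cleavage of chordin was not measured. Its log2 fold change of -0.90 was short of the fold threshold, and it was called down without WT replicate 2 or KO replicate 2. The 6 lists together held 78 genes, of which 51 were tested, 6 were called up and 12 down, with a median of -0.09 against 0.00 over all tested genes. Of all tested genes 8.30% were called up and 7.73% down. The lists were chosen with earlier results of these data known, so nothing is read from these counts.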

How the data were processed

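Total RNA of A2780 WT and A2780 CDK12 KO cells (3 libraries each) was sequenced as stranded single-end reads of 75 bases. Per the labels and the study's methods, the authors aligned reads with STAR to GRCh38 and deposited raw counts per Ensembl gene made with HTSeq, after FastQC. Versions, annotation release and strand setting are not given in the sources used here. Counts of reads that map to several genes may be lost or split.

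Symbols and positions came from GENCODE 44, which held 56321 of 60483 genes (93.1%). Genes were filtered with filterByExpr (minimum count 10, minimum total 15), scaled by TMM and tested with the edgeR 4.0.16 quasi-likelihood test on 16198 genes, two-sided, with Benjamini-Hochberg adjustment. Calls needed an adjusted p below 0.05 and a log2 fold change over 1 in size. On simulated data edgeR recovered 194 of 200 changed genes with 1 false call. The simulation left out genes with few counts, gave all genes the same dispersion and planted changes well past the fold threshold. It therefore does not cover genes with few counts or differences near that threshold. Alternatives were voom/limma 3.58.1 (the study's test), DESeq2 1.42.0, other scalings, filters, thinning and leaving out each library. Genes named were the members, their overlapping genes, called genes of the lists and within 1 Mb, and the 5 genes most like MYOC and OLFM3. Members and lists were chosen with earlier results of these data known. Nothing states that libraries are separate cultures, so p-values measure the spread between libraries, which may be technical.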

Additional observations from a re-analysis of the deposited data

How the results depend on the processing

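No paired analysis was possible because the labels number the libraries 1 to 6 and the groups share no replicate number. MYOC and OLFML3 stayed past both thresholds upward and OLFM3 and OLFML2A downward with voom/limma, DESeq2, other scalings, thinning, no filter and each library left out. The members were chosen with this contrast known and the same libraries were refitted, so this describes the fits and is not support for the differences. With at least 10 counts in every library, which removes genes near 0 in a group, 1 member was called up and 0 down, 568 and 684 of all genes, 2 and 6 list genes, and 3 and 4 neighbours. By adjusted p alone 5165 genes were called up and 5188 down, with 21 and 22 list genes and 63 and 51 neighbours. Neighbours called up and down were 7 and 7 within 0.5 Mb and 29 and 18 within 2 Mb, 9 were called up after thinning, and 20 down without the filter. Leaving out 1 library gave 1377 to 1502 genes up and 1269 to 1369 down, 2 to 2 members up and 2 to 3 down, 6 to 6 list genes up and 12 to 14 down, 12 to 16 neighbours up and 11 to 15 down, and -0.32 to -0.16 for CDK12. Depth limits OLFM4, OLFML1, OLFML2B and the low side of MYOC, OLFM3 and OLFML2A.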
